A study of Mus musculus with 6 samples.

Results

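The liver X receptor LXR alpha, encoded by Nr1h3, and 9 genes of macrophage lipid efflux, uptake, storage and lysosomal sterol release were measured in non-myocyte cells enriched for Cd11b from mouse hearts. The 10 genes (Nr1h3, Abca1, Abcg1, Apoe, Mylip, Srebf1, Lpl, Plin2, Lipa and Npc2) were taken by symbol, and each matched 1 of the 55487 gene identifiers in the count tables. All 10 passed the filter on low counts, which left 15707 genes. The mice called KO here were Egfr mKO, labelled EGFR -/- (myeloid-specific). Its control was Egfr f/f, labelled WT (both Egfr alleles floxed). Mice were of strain C57BL/6, and their age and sex and the Cre driver are not given in the labels. Each group had 3 pools, with 5, 5 and 6 hearts in the KO pools and 5 hearts in each WT pool, so a value is that of a pool and not of an animal. Cd11b is an integrin chain carried by myeloid cells, and the cells were concentrated with Cd11b microbeads after digestion of the hearts. Markers of other heart cells were also found in the pools.

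LXR alpha is a nuclear receptor that binds oxysterols and pairs with the retinoid receptor RXR. With sterol bound, the pair switches on genes that move cholesterol out of the cell (Abca1, Abcg1, Apoe), limit sterol uptake (Mylip) and make fatty acids (Srebf1). Macrophages take in lipid by phagocytosis and with the help of lipoprotein lipase (Lpl), free cholesterol in the lysosome (Lipa, Npc2) and hold the surplus in droplets coated by perilipin 2 (Plin2). LXR and RXR bind a pair of hexamers in the same direction with 4 bases between them, known as DR4.

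The promoters of Abca1 and Srebf1 are shown because they share an element of this form. Sequences were taken from RefSeq on GRCm38.p6, where 8 of the 10 genes had an entry, with 13 start sites between them. The windows hold the 250 bases before a start site, 5′ to 3′ on the gene's strand. Capitals mark motif matches.
Abca1, chr4:53159896-53160145, minus strand: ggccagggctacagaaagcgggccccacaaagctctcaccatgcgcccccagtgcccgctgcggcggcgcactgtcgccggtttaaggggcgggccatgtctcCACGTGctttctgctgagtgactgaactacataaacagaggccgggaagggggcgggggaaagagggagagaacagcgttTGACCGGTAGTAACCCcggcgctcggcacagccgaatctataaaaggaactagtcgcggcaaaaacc
Srebf1, chr11:60210472-60210721, minus strand: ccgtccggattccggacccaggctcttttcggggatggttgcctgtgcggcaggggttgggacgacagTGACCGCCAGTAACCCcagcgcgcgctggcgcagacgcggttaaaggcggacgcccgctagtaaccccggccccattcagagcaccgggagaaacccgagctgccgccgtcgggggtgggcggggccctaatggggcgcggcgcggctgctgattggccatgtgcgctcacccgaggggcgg
Plin2, chr4:86670060-86670309, minus strand: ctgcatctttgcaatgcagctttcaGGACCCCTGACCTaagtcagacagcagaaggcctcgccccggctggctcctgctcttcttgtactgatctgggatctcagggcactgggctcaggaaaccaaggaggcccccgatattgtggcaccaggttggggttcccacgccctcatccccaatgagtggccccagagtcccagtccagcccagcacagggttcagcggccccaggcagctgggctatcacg

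The long run of capitals in Abca1 and the run in Srebf1 are the reverse complement of the letters GGGTTANNNNCGGTCA. This pattern was read from these promoters after they had been seen. It stood in 3 of 32851 RefSeq promoters (0.00913%) on either strand, those of Abca1, Srebf1 and Fasn, the fatty acid synthase gene and a textbook LXR target. Read on the strand of the pattern, the elements were these, with capitals for the fixed hexamers and the spacer alike.
Abca1: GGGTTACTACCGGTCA
Fasn: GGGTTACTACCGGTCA
Srebf1: GGGTTACTGGCGGTCA

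The elements of Abca1 and Fasn were the same in all their letters. They began 67 bases before the start of Abca1, 225 before that of Fasn and 182 before 1 of the 3 starts of Srebf1. The element is a looser form of the consensus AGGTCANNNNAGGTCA. With at most 2 mismatches in its 12 fixed letters, on both strands, that consensus stood in 0 of the 8 genes and in 2.57% of all promoters. With at most 3, a limit added after the sequences were seen, it stood in 1 window each of Abca1 and Srebf1. That was among the 13 windows of the 8 genes, against 18.5% of all promoters. The capitals in Plin2 match AGGTCANAGGTCA, the DR1 form bound by PPAR with RXR, with 2 mismatches on the reverse strand, 225 bases before the start. That form stood in 3.24% of all promoters at the same limit and in no other of the 8 genes. Abca1 also held the E-box CACGTG, as did 6.02% of promoters. These are letters in windows, and binding was not measured.

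In the edgeR quasi-likelihood test, 0 of the 10 genes passed an adjusted p of 0.05 over all genes. Across the 15707 genes tested, 0.0127% passed, which were Lyz2 and Egfr, both lower in KO. Lipa was the only 1 of the 10 genes with an unadjusted p under 0.05, being higher in KO; among all genes 15.3% had such a p, with 4.77% higher and 10.6% lower. DESeq2 also called 0 of the 10 (5.05% of all genes), as did limma-voom (0.00637%, all lower) and edgeR without the filter (2.70%). Of the 10 log2 fold changes (KO over WT) 7 were positive and 3 negative, with a median of 0.23, against a median of 0.01 over all genes tested. That median of the 10 was 0.008 with the vessel and fibroblast markers as a covariate, 0.02 with the macrophage markers as a covariate and 0.06 without KO pool 1. It was 0.31 without WT pool 1, 0.28 without KO pool 2 and 0.25 without KO pool 3. Without WT pool 3 it was 0.17, without WT pool 2 0.15, and with the Y-linked covariate 0.23. Both sets of markers went partly along with genotype, so fits with them, here and below, cannot part the markers from genotype. Nr1h3, Lipa and Npc2 were higher in every KO pool than in every WT pool, an arrangement found for 9.59% of all genes. The opposite arrangement held for 0 of the 10 and for 10.1% of all genes.

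**Figure D1:**
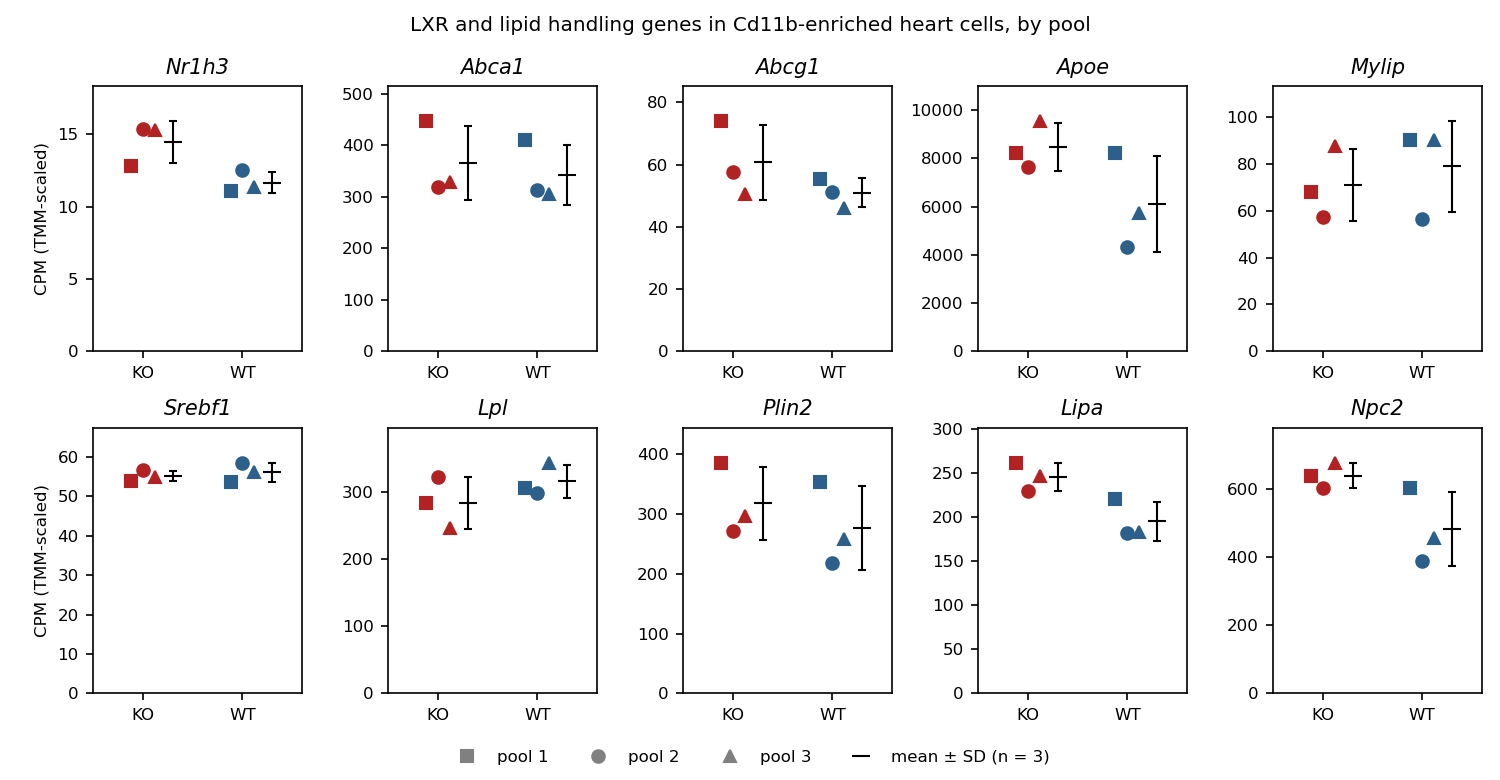
Normalised read count (CPM, TMM-scaled) of each gene in the 3 KO pools (red, left) and the 3 WT pools (blue, right), with pool numbers as symbols and the mean ± SD in black. Pool 1 is highest in both groups for Abca1, Abcg1, Plin2 and Lipa, and Srebf1 lies between 53.6 and 58.5 CPM in all 6 pools.

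The pools differed in ways that touch every result below. Gene totals ranged from 25199667 to 27485129 reads in KO and from 17780707 to 27104205 in WT. Egfr was at 17.3 ± 1.29 CPM in KO and 47.5 ± 6.29 CPM in WT, and Lyz2 at 18.6 ± 1.06 CPM in KO and 5034 ± 1449 CPM in WT (SD, n = 3 each). Itgam, which encodes Cd11b, was at 148.5 ± 28.1 CPM in KO and 104.4 ± 31.6 CPM in WT. All 20 macrophage markers were present, and they summed to 21935 to 23205 CPM in KO and to 12534 to 22852 CPM in WT. The upper WT value is that of WT pool 1, which lay among the KO pools. Endothelial markers (14 genes) summed to 1436 to 1851 CPM in KO and 2577 to 4226 CPM in WT, and fibroblast markers (12 genes) to 3994 to 5499 CPM in KO and 4636 to 15074 CPM in WT. Erythroid markers (7 genes) summed to 1881 CPM in WT pool 1, against 75.7 and 142.1 CPM in WT pools 2 and 3. In KO they summed to 36.2 to 85.0 CPM. Y-linked genes were high in KO pool 1 and WT pool 1, at 233.6 and 240.2 CPM in sum, against 0.94 CPM or less in the other pools. In such bulk RNA, fewer cells of a type and less RNA per cell cannot be told apart.

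Nr1h3 (ENSMUSG00000002108, chromosome 2, 91184061 to 91202834 of GRCm38, minus strand) was counted 336, 392 and 394 times in the KO pools and 289, 240 and 244 times in the WT pools. Its normalised count was 12.8, 15.4 and 15.3 CPM in KO pools 1 to 3, against 11.1, 12.5 and 11.4 CPM in WT pools 1 to 3. The groups did not overlap, but the lowest KO pool lay only just above the highest WT pool. KO over WT was 0.32 on the log2 scale (SE 0.15, 95% interval -0.02 to 0.65), with an adjusted p of 0.359 by edgeR. Its estimate stayed between 0.27 and 0.40 over the 18 other settings tried. Of its 2515 exon bases, 34 also belong to the transcript Gm13783 on the same strand.

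Abca1, the transporter that loads cholesterol onto lipid-poor apolipoprotein A-I (ENSMUSG00000015243, chromosome 4, 53030787 to 53159895, minus strand), was at 448.3, 318.9 and 329.1 CPM in KO and 409.9, 313.7 and 306.1 CPM in WT. Pool 1 stood above the other pools in both groups, and the groups overlapped. On the log2 scale KO over WT was 0.09 (SE 0.19, adjusted p = 0.856 by edgeR), and its 95% interval covered folds of 0.79 to 1.44. Without KO pool 1 the sign changed, with -0.08 on the log2 scale (adjusted p = 0.908).

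Abcg1, which passes cholesterol to high-density lipoprotein (ENSMUSG00000024030, chromosome 17, 31057675 to 31117988, plus strand), was at 74.1, 57.5 and 50.7 CPM in KO and 55.5, 51.4 and 46.1 CPM in WT. Its groups overlapped as well, with KO pool 1 above all other pools. KO over WT came to 0.25 in log2 (SE 0.16, adjusted p = 0.486 by edgeR), and 0.09 without KO pool 1.

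Apoe, the apolipoprotein that macrophages secrete as a cholesterol acceptor (ENSMUSG00000002985, chromosome 7, 19696109 to 19699188, minus strand), was at 8199, 7638 and 9562 CPM in KO and 8234, 4337 and 5741 CPM in WT. WT pool 1 lay within the KO range and the other WT pools below it. The KO over WT estimate was 0.47 in log2 (SE 0.30, adjusted p = 0.503 by edgeR), the largest estimate of the 10 genes and the one with the widest 95% interval (-0.23 to 1.18). Without WT pool 1 it was 0.75 (adjusted p = 0.0817 by edgeR), and without WT pool 2 it was 0.27.

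Mylip, a ubiquitin ligase that limits sterol uptake (ENSMUSG00000038175, chromosome 13, 45389742 to 45412022, plus strand), was at 68.0, 57.1 and 87.6 CPM in KO and 90.3, 56.3 and 89.9 CPM in WT. Pool 2 was lowest in both groups. Its KO over WT estimate was -0.15 in log2 (SE 0.22, adjusted p = 0.788 by edgeR) and ranged from -0.35 to -0.02 on leaving out 1 pool.

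Srebf1, the transcription factor of fatty acid synthesis (ENSMUSG00000020538, chromosome 11, 60199089 to 60222581, minus strand), was at 54.0, 56.6 and 54.9 CPM in KO and 53.6, 58.5 and 56.2 CPM in WT. It varied least of the 10 genes, with an SD of 0.05 in log2 CPM over the 6 pools. The log2 fold change of -0.02 (SE 0.09, adjusted p = 0.93 by edgeR) had a 95% interval of 0.85 to 1.14 as a fold. The count sums the transcripts from all start sites, so isoforms 1a and 1c are not told apart. Of its 5634 exon bases, 109 overlap Rai1 on the other strand and 66 the microRNA gene Mir6922, and the strand setting of the counting is not given in the sources used here.

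Lpl, which splits the triglycerides of lipoproteins (ENSMUSG00000015568, chromosome 8, 68880491 to 68907448, plus strand), was at 283, 322.3 and 245.9 CPM in KO and 306.4, 297.8 and 343.8 CPM in WT. The groups overlapped, with the lowest pool in KO and the highest in WT. In log2, KO over WT was -0.16 (SE 0.14, 95% interval -0.48 to 0.17, adjusted p = 0.645 by edgeR). It was -0.25 without KO pool 2, -0.07 without KO pool 3 and -0.09 without WT pool 3. Heart muscle and fat cells also make Lpl. The 10 cardiomyocyte markers summed to 251.9 to 451.9 CPM in KO and 331.4 to 566.4 CPM in WT, and the 8 adipocyte markers to 1.16 to 2.60 CPM in KO and 2.10 to 2.82 CPM in WT. The part of cardiomyocytes in the Lpl value was not tested, while the adipocyte markers were near 0.

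Plin2 (ENSMUSG00000028494, chromosome 4, 86648386 to 86670060, minus strand) was at 386.1, 270.9 and 296.2 CPM in KO and 354.3, 217.6 and 258.3 CPM in WT. Pool 1 was again the highest in both groups, and the groups overlapped. An estimate of 0.20 in log2 followed (SE 0.21, adjusted p = 0.706 by edgeR), 0.42 without WT pool 1, and 0.04 without KO pool 1 or without WT pool 2.

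The lysosomal genes had the smallest p-values of the 10. Lipa, the acid lipase that frees cholesterol from its esters (ENSMUSG00000024781, chromosome 19, 34492318 to 34527474, minus strand), was at 262, 230.2 and 246.3 CPM in KO and 220.9, 182.5 and 182.7 CPM in WT. Every KO pool lay above every WT pool. Its log2 fold change was 0.33 (SE 0.13, 95% interval 0.04 to 0.63), with an unadjusted p of 0.0306 and an edgeR adjusted p of 0.276. It was 0.11 with the vessel and fibroblast covariate and 0.18 with the macrophage covariate (unadjusted p = 0.637 and 0.236 by edgeR). Among all genes tested, 2409 had an unadjusted edgeR p under 0.05 without a covariate. With the vessel and fibroblast covariate 262 had one, and with the macrophage covariate 617. Npc2, the lysosomal protein that hands cholesterol to NPC1 (ENSMUSG00000021242, chromosome 12, 84754562 to 84773152, minus strand), was at 636.8, 603.3 and 677.3 CPM in KO and 601.4, 390.0 and 456.7 CPM in WT. WT pool 1 lay just below the lowest KO pool. KO over WT was 0.40 in log2 (SE 0.18, adjusted p = 0.343 by edgeR), and 0.27 without WT pool 2 (adjusted p = 0.57 by edgeR). Without WT pool 1 Npc2 passed and was higher in KO, at 0.60 with adjusted p = 0.0449 by edgeR, as the only 1 of the 10 genes in a fit that called 8.30% of all genes, 2.33% higher and 5.97% lower.

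**Figure D2:**
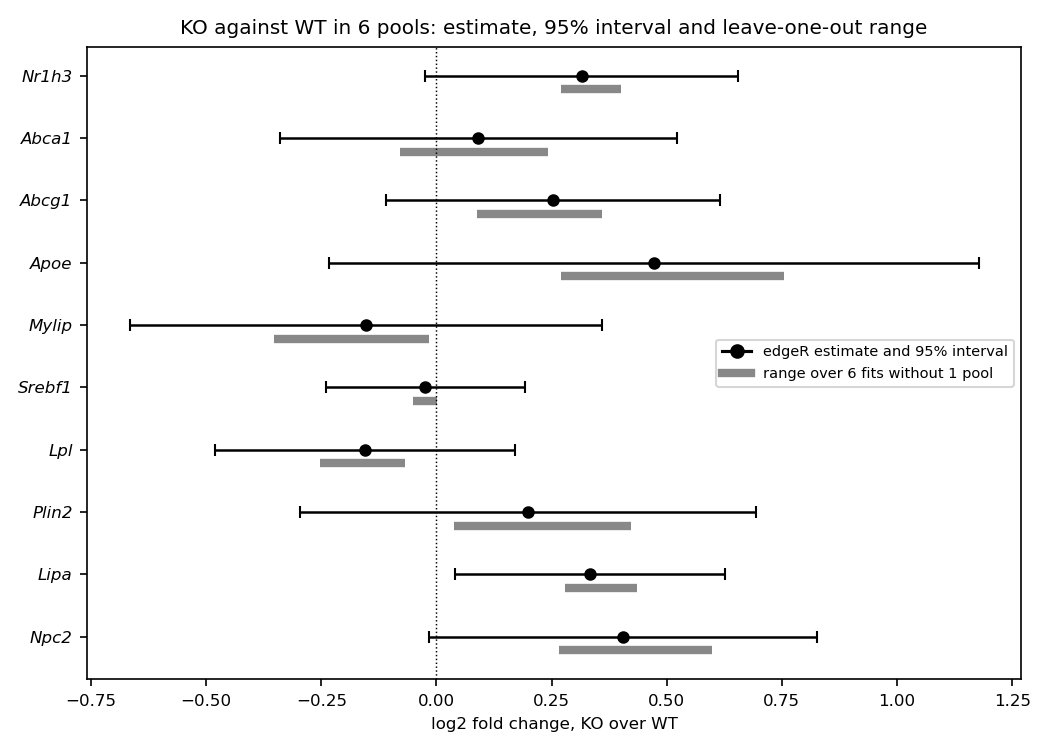
Log2 fold change (KO over WT) of the 10 genes from edgeR on 6 pools, with its 95% interval (black) and the range over the 6 fits that each leave out 1 pool (grey). The intervals include 0 for all genes but Lipa, and the leave-one-out range crosses 0 for Abca1 and Srebf1.

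Levels of different genes were compared per length, as reads per kilobase of exon after TMM scaling to CPM (RPKM). Apoe stood far above the others, at 3960 ± 463 RPKM in KO and 2855 ± 923 RPKM in WT (SD, n = 3 each). Npc2 followed with 117.5 ± 6.82 RPKM in KO and 88.8 ± 19.9 RPKM in WT, and then Plin2 with 90.5 ± 17.2 RPKM in KO and 78.8 ± 20.0 RPKM in WT. The pools of Npc2 and Plin2 overlapped in WT and not in KO. Lipa, Abca1 and Lpl came next, at 36.3, 35.3 and 27.1 RPKM in KO and 28.8, 33.1 and 30.2 RPKM in WT, so their order differed between the genotypes. Their pools overlapped in WT, and in KO those of Lipa and Abca1 did. Mylip was at 21.9 RPKM in KO and 24.4 RPKM in WT, Srebf1 at 9.80 RPKM in KO and 9.96 RPKM in WT, and Abcg1 at 8.33 RPKM in KO and 6.99 RPKM in WT. Nr1h3, the receptor, was lowest in both genotypes, at 5.77 ± 0.58 RPKM in KO and 4.64 ± 0.30 RPKM in WT, below every pool of Abcg1 within each genotype.

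Abca1, Abcg1, Plin2 and Lipa had their highest value of each genotype in pool 1, the pools with Y-linked RNA. Of all genes tested, 12.6% did so. Within KO, Abca1 was 448.3 CPM in pool 1 and 318.9 and 329.1 CPM in the others. Within WT, it was 409.9 CPM in pool 1 and 313.7 and 306.1 CPM in the others. The same pools were also the richest in neutrophil markers (10 genes), whose sum was 2983, 827 and 859 CPM in KO pools 1 to 3 and 2448, 1214 and 649 CPM in WT pools 1 to 3. With 1 such pool in each group there is no replicate, and the part of sex or of neutrophils in these levels was not tested. A fit with Y-linked expression as a covariate left the log2 fold changes of Abca1, Abcg1, Plin2 and Lipa at 0.09, 0.24, 0.21 and 0.34, with edgeR adjusted p-values of 0.206 or more.

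Each gene was then set against the macrophage markers of its own pool, as its log2 CPM minus the mean log2 CPM of 20 markers. That mean was 9.41, 9.43 and 9.51 in the KO pools and 9.45, 8.60 and 8.90 in the WT pools, lowest in WT pools 2 and 3. On this scale Apoe and Npc2 varied little. The SD over the 6 pools was 0.09 for Apoe, against 0.42 in plain log2 CPM, and 0.08 for Npc2, against 0.31. Their KO minus WT differences were 0.05 and -0.04 (exact permutation p = 0.6 for each, two-sided, 3 against 3 pools). Lipa kept nearly the same SD, 0.21 against 0.22 in plain log2 CPM.

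Nr1h3, Abca1, Abcg1, Mylip, Srebf1 and Lpl spread more on that scale than in plain log2 CPM. Since the marker mean was lowest in WT pools 2 and 3, a gene level in plain log2 CPM takes a negative difference here. Srebf1 was nearly such a gene, with an SD of 0.05 in plain log2 CPM and an edgeR log2 fold change of -0.02. Its difference on this scale was -0.49, nearly all of it from the marker mean, which enters the difference of every gene alike. Mylip was at -3.32, -3.59 and -3.05 in KO and -2.95, -2.78 and -2.40 in WT relative to the markers. The groups did not overlap, with the KO pools lower, a difference of -0.61 with an exact permutation p of 0.1, the smallest that 3 against 3 pools can give. In plain CPM the groups of Mylip overlapped, with an edgeR log2 fold change of -0.15. The share of all genes without overlap on this scale was not computed. Lpl had a difference of -0.63 (exact permutation p = 0.2) and Srebf1 of -0.49 (exact permutation p = 0.3), with WT pool 1 inside the KO range for both. Abca1 had -0.38, Plin2 -0.25, Abcg1 -0.23, Nr1h3 -0.16 and Lipa -0.13, with exact permutation p-values of 0.3 to 0.7. The edgeR fit with the macrophage covariate gave the other sign for Nr1h3 (0.39), Abcg1 (0.20) and Lipa (0.18). It gave the same sign for Abca1 (-0.10) and Plin2 (-0.13). The direction for Nr1h3, Abcg1 and Lipa thus depended on how the markers were taken into account. Without WT pool 2 the sign turned for Nr1h3 (0.08), Lipa (0.01) and Npc2 (0.0079), and Abcg1 had -0.03. Without WT pool 1 Nr1h3 had -0.42, and without KO pool 3 the sign turned for Apoe (-0.01). These p-values are not adjusted for the 10 genes. WT pools 2 and 3, which were highest on this scale for Lpl and Srebf1, were also the richest in fibroblast markers (9713 and 15074 CPM in sum, against 4636 CPM in WT pool 1), and their part in these differences was not tested.

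**Figure D3:**
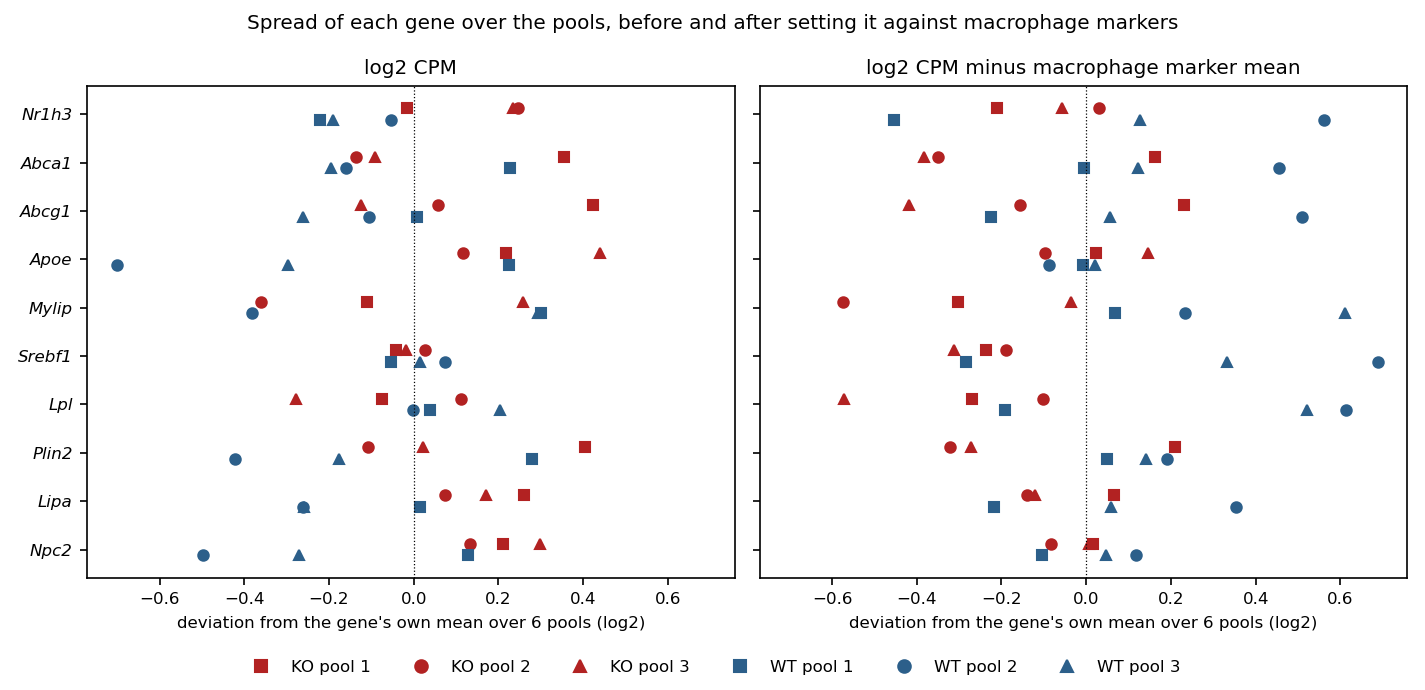
Deviation of each pool from the gene's own mean over 6 pools, in log2 CPM (left) and in log2 CPM minus the macrophage marker mean (right), with KO pools in red and WT pools in blue. Apoe and Npc2 draw together on the right (SD 0.09 and 0.08), while Srebf1 and Lpl spread (SD 0.41 and 0.47).

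Around the receptor, 9 further lists of lipid genes were read from the same fit. They held 123 genes, of which 111 were tested. In edgeR with all 6 pools 0 of the 111 passed, and 22 had an unadjusted p under 0.05, as had 15.3% of all genes tested. Among the 10 partners and coregulators of LXR the median log2 fold change was -0.05. The sister receptor Nr1h2 (LXR beta) was at 122.6 ± 13.6 CPM in KO and 115.1 ± 14.4 CPM in WT, with a log2 fold change of 0.09, and the RXR genes Rxra and Rxrb had 0.16 and 0.22. The coactivator gene Ncoa1 had -0.15.

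Of 7 tested genes of oxysterol making and breakdown, which set the supply of LXR ligands, 5 were negative (median -0.14). The median turned positive without WT pool 1 (0.22), KO pool 2 (0.06) or KO pool 1 (0.01), and was -0.29 without KO pool 3. Cyp7b1, which clears 25- and 27-hydroxycholesterol, was at 2.51 ± 0.72 CPM in KO and 4.40 ± 0.74 CPM in WT, a log2 difference of -0.80 (SE 0.29, adjusted p = 0.263 by edgeR). Ch25h, the 25-hydroxylase, had -0.34, Cyp27a1, the 27-hydroxylase, had 0.25 and Cyp46a1, the 24-hydroxylase, had 0.63 (SE 0.41). Groups overlapped for Ch25h, Cyp27a1 and Cyp46a1. Cyp46a1 was low, at 1.33 ± 0.23 CPM in KO and 0.85 ± 0.34 CPM in WT.

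The list of other LXR targets had 16 tested genes, 13 positive and 3 negative, with a median of 0.08. Cd5l, an apoptosis inhibitor secreted by tissue macrophages, led it at 39.5, 89.8 and 19.5 CPM in KO and 9.12, 4.59 and 8.71 CPM in WT. Every KO pool lay above every WT pool, and KO pool 2 was the highest. Its log2 fold change was 2.72 (SE 0.55, adjusted p = 0.173 by edgeR). Pltp, the phospholipid transfer protein, was at 1229 ± 40.3 CPM in KO and 850 ± 262 CPM in WT, with 0.53. Mlxipl, the carbohydrate response factor, had 1.31 and the desaturase gene Fads2 -0.57, both with overlapping groups. Fasn, shown above for its promoter and so chosen after its values were known, was at 76.1 ± 5.55 CPM in KO and 76.0 ± 7.72 CPM in WT. The median of 16 SREBP2 sterol genes was 0.13. Among these, the sterol demethylase gene Cyp51 had 0.35, Mvd 0.37, Dhcr7 0.24 and the sterol carrier gene Stard4 -0.22.

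The uptake receptors had 6 positive and 5 negative of 11 (median 0.31). Their median was -0.04 with the vessel and fibroblast covariate, -0.14 with the macrophage covariate and 0.06 over those with a mean of at least 5 CPM. The scavenger receptor Marco was at 22.8 ± 5.62 CPM in KO and 4.70 ± 2.29 CPM in WT, without overlap (log2 fold change 2.27, adjusted p = 0.148 by edgeR), and Msr1, scavenger receptor A, had 0.53. Cd36, the fatty acid translocase, was at 733.2 ± 38.1 CPM in KO and 974.6 ± 80.8 CPM in WT, without overlap (-0.41, adjusted p = 0.253 by edgeR). Vldlr, a receptor of triglyceride-rich particles, had -1.03. The groups of Msr1 and of Vldlr overlapped. For Vldlr, WT pool 1 at 6.39 CPM lay within the KO range of 5.61 to 6.76 CPM. Of 18 lysosomal lipid genes 15 were positive (median 0.29), beside 20 of 20 macrophage markers (median 0.43), and the lysosomal median was 0.06 with the vessel and fibroblast covariate and 0.05 with the macrophage covariate. Cd68, Mertk and Stab1 stand both among the lipid lists and among those markers. Galc (0.47), Pla2g15 (0.45) and Hexa (0.58), hydrolases of glycolipids and phospholipids, were higher in every KO pool. Npc1, the membrane partner of Npc2, had 0.12.

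Of 7 tested partners of Lpl 5 had negative log2 fold changes (median -0.04), as had the endothelial markers (14 of 14, median -1.08). Gpihbp1, which anchors Lpl on capillary endothelium and is itself 1 of those markers, was at 24.2, 34.1 and 35.8 CPM in KO and 53.3, 56.0 and 88.8 CPM in WT. The groups were apart (log2 fold change -1.07, SE 0.23, adjusted p = 0.18 by edgeR). Angptl4, a secreted inhibitor of Lpl, was at 5.52 ± 0.79 CPM in KO and 10.2 ± 1.47 CPM in WT, with -0.88. The proteoglycan gene Sdc1 had -0.41 and Sel1l, which helps Lpl fold, 0.17. Mgll, the monoglyceride lipase, was at 115.8 ± 20.0 CPM in KO and 244.7 ± 72.3 CPM in WT, with -1.08 (adjusted p = 0.174 by edgeR). In the droplet list (14 tested, median -0.05) Plin4 had -0.68, Lipe, hormone-sensitive lipase, -0.25, and Nceh1, a cholesteryl ester hydrolase, 0.34. Among 12 PPAR genes (median -0.25), Pparg had -0.34, Fabp5 -0.33, the fatty acid carrier gene Fabp4 -1.03 and the kinase gene Pdk4 -1.19. The median turned positive for the Lpl partners without KO pool 2 (0.01), for the droplet list without the filter (0.01), KO pool 2 (0.02) or WT pool 1 (0.05), and for the PPAR genes with the vessel and fibroblast covariate (0.02). Endothelial cells also express Cd36, Fabp4 and Angptl4, and the part of those cells in these values was not tested.

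Under other tests some of these neighbours passed, while of the 10 genes Npc2 alone did, in the fit without WT pool 1. DESeq2 called 3 of the neighbours higher (Cd5l and Marco among them) and 6 lower (Angptl4, Cd36, Fabp4, Gpihbp1, Mgll and Pdk4), against 1.11% of all genes higher and 3.94% lower. The edgeR test without its filter called 2 higher (Cd5l and Marco) and 6 lower (Angptl4, Fabp4, Gpihbp1, Mgll, Pdk4 and Vldlr), against 0.479% and 2.22% of genes. Without WT pool 1, where edgeR called 2.33% of all genes higher and 5.97% lower, it called 10 of the neighbours higher (Cd5l, Cxcl16, Galc, Hexa, Laptm5, Marco, Msr1, Pla2g15 and Pltp among them) and 8 lower (Angptl4, Fabp4, Fads2, Gpihbp1, Mgll, Pdk4, Scd2 and Vldlr). Pltp then stood at 0.82 (adjusted p = 0.0205) and Hexa at 0.82 (adjusted p = 0.0202). With the vessel and fibroblast markers or the macrophage markers as a covariate, or without any other 1 pool, it called 0.

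**Figure D4:**
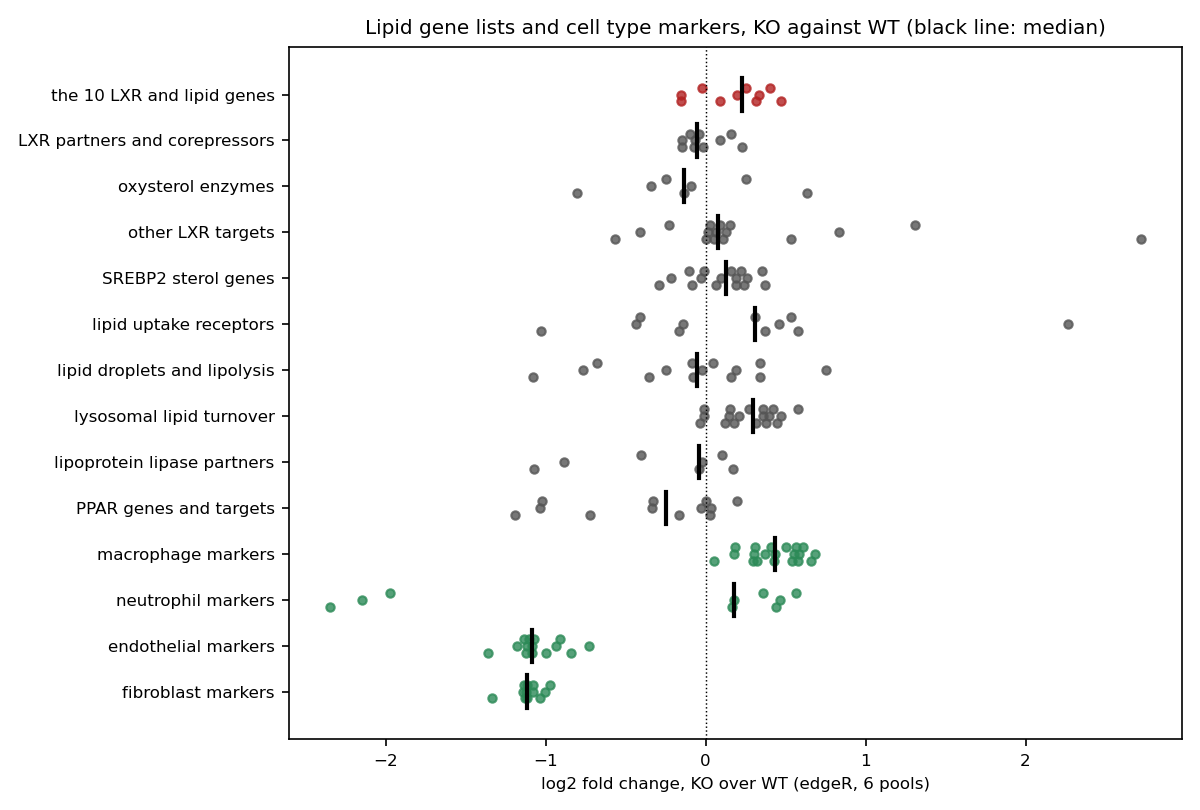
Log2 fold change (KO over WT, edgeR on 6 pools) of each tested gene in the lists of lipid genes (red and grey) and of cell type markers (green), with the median of each list as a black line. The medians are 0.23 for the 10 genes, 0.29 for lysosomal lipid genes, 0.43 for macrophage markers and -1.08 and -1.12 for endothelial and fibroblast markers.

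The expression pattern of Nr1h3 over the 6 pools was most like that of Cog6 (Pearson r = 0.997), Hdac1 (0.995), Tma7 (0.989), Rps27l (0.981) and Ola1 (0.981) among 11028 genes with a mean of at least 5 CPM. Of the other 9 genes, Lipa was the most like it (r = 0.52) and ranked 1992 among the genes compared. These are descriptions over 6 pools that differ in genotype and in the level of macrophage markers, and what lies behind each r was not tested.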

How the data were processed

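Per the labels' protocols, RNeasy Mini columns gave the RNA of 6 pools of Cd11b-enriched heart cells (3 KO, 3 WT), and libraries were NEBNext Ultra II Directional. The deposited values are whole-number read counts per Ensembl gene, as the authors' counting gave them, without scaling. The submitters' processing notes name STAR, HTSeq, DESeq2 and GRCm38. No version, annotation release or strand setting is given in the sources used here. The 5 counters that name no gene, 15.4% to 18.8% of counted reads, were left out. Symbols came from a name table (55141 of 55487 identifiers) and positions and exon lengths from GENCODE M21 (GRCm38).

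KO was compared with WT in edgeR 4.0.16 (R 4.3.3) by the quasi-likelihood test after filterByExpr (minimum count 10) and TMM scaling, with Benjamini-Hochberg adjustment over 15707 genes and a threshold of 0.05. Intervals are 95%, from the standard error (the absolute log2 fold change divided by the root of F) and 7.80 degrees of freedom. For log2 levels a prior count of 2 was used. Alternatives were DESeq2 1.42.0, limma-voom (limma 3.58.1), other scalings, filters and deviances, covariates, a replicate block and each pool left out, 18 in all. The procedure was also run on simulated counts, and the outcome is not reported here and not used as support. The members, lists and settings were chosen with earlier results of these data known. From each list up to 4 genes with the smallest p and a mean of at least 1 CPM are named, with Nr1h2, Rxra, Npc1 and Gpihbp1. Fasn was added for its promoter. Some genes that this rule names are not reported here. The series' design text describes the pools as biological replicates, and p-values measure the spread between pools, not between animals. Figures were drawn with matplotlib 3.10.9.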

Additional observations from a re-analysis of the deposited data

How the results depend on the processing

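The count of genes called was 2 with all 6 pools. It was 762 with DESeq2, 1 with limma-voom, 782 without the filter, 1 with the vessel and fibroblast covariate, 7 with the macrophage covariate, and 1 to 1338 on leaving out 1 pool, where WT pool 1 gave 1338. Of the 10 genes, 0 were called under each setting except without WT pool 1 (range 0 to 1 over the left-out pools). Of the neighbouring lipid genes 0 were called, against 9 with DESeq2, 8 without the filter and 0 to 18 on leaving out 1 pool. The sign changed for 4 of the 10 genes, none past the threshold. With the vessel and fibroblast covariate the log2 fold changes were -0.27 for Abca1, -0.012 for Abcg1, -0.18 for Plin2 and 0.028 for Srebf1. With the macrophage covariate they were -0.10 for Abca1, -0.13 for Plin2 and 0.044 for Srebf1. On leaving out 1 pool Abca1 ranged from -0.080 (without KO pool 1) to 0.24 and Srebf1 from -0.051 (without WT pool 1) to 0.00020 (without WT pool 2). Apoe had 0.0042 and Npc2 0.08 with the macrophage covariate. The cause was not tested. The differences relative to the macrophage markers moved by less than 1 SD between pools with a shorter marker list, with Csf1r alone and on leaving out each pool. The Mylip difference was -0.66 with the shorter list and -0.59 with Csf1r alone (exact permutation p = 0.1 for each). The consensus of the LXR element was found in the promoters of 0 of the genes at 1 or 2 mismatches and of 2 at 3. With the replicate number as a block 3 genes were called and 0 of the 10; same-numbered pools did not deviate together (r = 0.10, -0.16 and 0.01), so the numbers were not taken as pairs. Each of the 10 genes had at least 240 reads in every pool.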

Other observations

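Some genes of triglyceride storage stood apart in KO pool 1. G0s2, an inhibitor of adipose triglyceride lipase, was at 88.8 CPM in KO pool 1 and 24.2 and 27.3 CPM in the other KO pools, against 31.5, 26.5 and 25.2 CPM in WT pools 1 to 3. Dgat1, which makes triglyceride, was at 143.5, 47.9 and 83.7 CPM in the KO pools and 90.8, 67.9 and 58.2 CPM in the WT pools. Of 14 tested genes of droplets and lipolysis, 6 had their highest value of each genotype in pool 1, as did 11 of 18 lysosomal lipid genes and 6 of 9 neutrophil markers, against 12.6% of all genes tested. Among the other lipid lists it was 1 of 16 other LXR targets, 1 of 12 PPAR genes and 3 of 16 SREBP2 genes. It was 2 of 11 uptake receptors, 2 of 10 LXR partners, 2 of 7 oxysterol genes and 2 of 7 Lpl partners. Macrophage markers had 3 of 20 and endothelial markers 0 of 14. The genes in this paragraph were chosen after their values were seen.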
